A study of Rattus norvegicus with 4 samples.

Results

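Ucp2 encodes uncoupling protein 2, a carrier of the mitochondrial inner membrane, and it was 1 gene of the 16881 gene symbols measured in cultured rat neural stem/progenitor cells (NSPCs). It was chosen by its counts themselves, for its large rise between 2 culture media, so its values across media are a description and were not tested. The platform difference of Ucp2 was not used in that choice and was tested.

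The study compared 4 groups of wild-type NSPCs, each represented by a single library. Cells were grown on PUCL@CNT1, which the series title places among PUCL and carbon nanotube hybrid scaffolds, or on bare PUCL. Both platforms were sampled in neuronal differentiation medium, a B-27 Plus neuronal culture medium given for 1.5 d after the maintenance period, and in maintenance medium, where cells had spent 24 h in knockout DMEM/F12 with a neural supplement. The 4 groups are therefore PUCL@CNT1 in differentiation medium, PUCL in differentiation medium, PUCL@CNT1 in maintenance medium and PUCL in maintenance medium. Medium and time in culture changed together and cannot be told apart. RNA was read from its 3′ end with a Lexogen QuantSeq kit, so a count is a read near the polyadenylated end of a transcript.

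The SLC25 proteins are the carriers that move metabolites across the mitochondrial inner membrane, and the uncoupling proteins are a branch of that family. UCP1 carries protons and makes heat in brown fat, while human UCP2 has been shown to export short dicarboxylic acids such as malate and aspartate in exchange for phosphate. UCP2 has also been tied to fatty acid use and to lower mitochondrial superoxide. In the adult brain it is found in microglia and in some neurons, and in human pluripotent stem cells it is known to decline on differentiation.

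The RefSeq promoter of rat Ucp2 (GRCr8, chr1:164251123-164251422, plus strand) is printed here because several transcription factors are known to act on this stretch. It holds 250 bases before and 50 after the annotated start, with 1 match to a sterol regulatory element in capitals.

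Ucp2: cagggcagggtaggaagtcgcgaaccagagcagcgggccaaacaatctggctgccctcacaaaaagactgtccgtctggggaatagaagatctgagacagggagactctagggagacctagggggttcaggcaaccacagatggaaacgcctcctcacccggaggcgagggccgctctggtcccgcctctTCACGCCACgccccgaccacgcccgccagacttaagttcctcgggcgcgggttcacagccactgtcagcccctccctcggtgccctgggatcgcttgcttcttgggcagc

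The sterol element was searched as TCACNCCAC on both strands and lies from base -60 to base -52 relative to the start. Of 33469 RefSeq promoters of the same length, 1.12% held it. No match was found for the PPAR direct repeat (0.0538% of promoters), the thyroid hormone direct repeat (0.00598%), the nuclear receptor half-site AGGTCA (16.2%), the E-box CACGTG (6.42%), the GC box GGGCGG (33.1%), the FOXO site GTAAACA (3.78%) or the antioxidant element TGACNNNGC (12.1%). The 2 direct repeats contain the half-site. The GC content of the stretch was 63.3%, against a median of 51.7% over all promoters. These matches are letters in a window and do not say whether a factor was bound.

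Libraries held 6855984 counts on PUCL@CNT1 and 6580894 on PUCL in differentiation medium, and 6035848 on PUCL@CNT1 and 6502918 on PUCL in maintenance medium, with 9584 to 9842 symbols detected in each. After genes under 10 counts in every library were left out, 10516 genes remained for the tests. As to the cell type, the progenitor genes Sox2 (3879 to 6301 counts), Nes (2363 to 3714) and Vim (28449 to 50754) were well detected, as was the oligodendrocyte lineage factor Olig2 (1975 to 3063). Msi1, another progenitor marker, had no count, Hes5 had 2 counts in 1 library, and the mature neuron marker Rbfox3 had at most 29. Each group is a single library, so intervals and floors below cover counting error only and leave out the spread between cultures. Reads carried no molecular identifiers that the labels mention, so copies of 1 molecule may be counted more than once.

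Ucp2 had 876 counts on PUCL@CNT1 and 1971 on PUCL in differentiation medium, against 43 on PUCL@CNT1 and 95 on PUCL in maintenance medium. Levels are given as counts per 1000000 (CPM) after scaling between libraries, and were not divided by gene length because reads come from the 3′ end. In differentiation medium the level was 132 CPM on PUCL@CNT1 (exact Poisson 95% interval 123 to 141) and 305 CPM on PUCL (292 to 319). In maintenance medium it was 6.88 CPM on PUCL@CNT1 (4.98 to 9.27) and 14.4 CPM on PUCL (11.7 to 17.6). The order from highest to lowest was thus PUCL in differentiation medium, PUCL@CNT1 in differentiation medium, PUCL in maintenance medium and PUCL@CNT1 in maintenance medium. No neighbours in that order had overlapping counting intervals, but the spread between cultures is not measured.

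**Figure D1:**
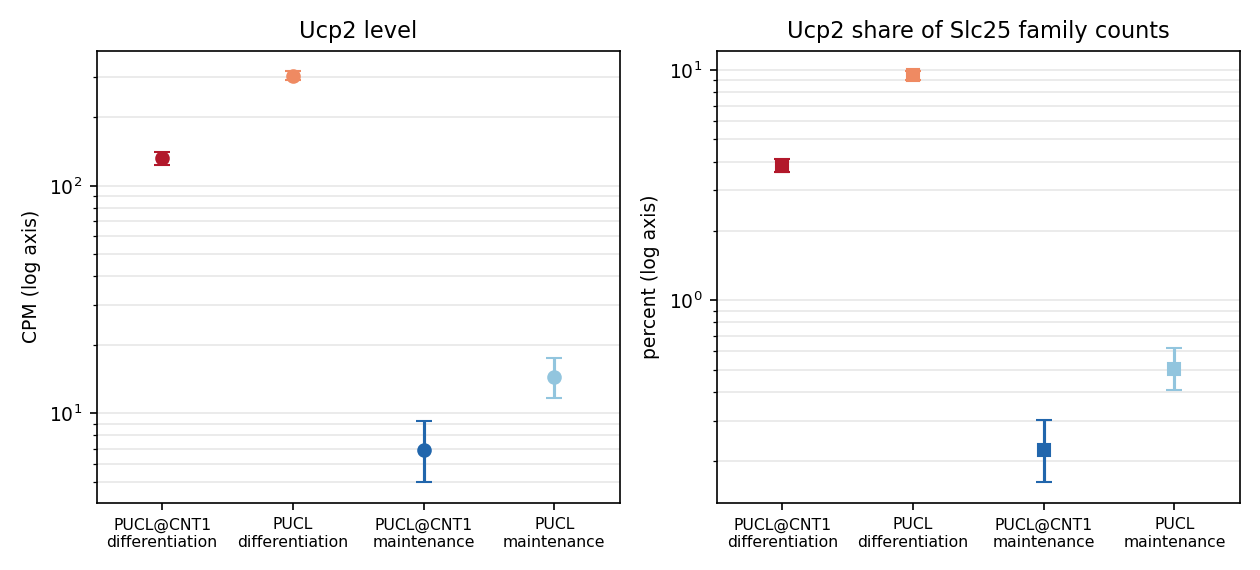
Ucp2 level in CPM (left, log axis) and Ucp2 as a percent of all Slc25 family counts (right, log axis) in the 4 libraries, with exact 95% counting intervals as bars. Both differentiation libraries lie above both maintenance libraries, and within each medium the PUCL@CNT1 library lies below the PUCL library.

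The level in differentiation medium was 19.1-fold that in maintenance medium on PUCL@CNT1, a log2 ratio of 4.24 (exact 95% interval 3.82 to 4.74). On PUCL it was 21.2-fold, a log2 ratio of 4.40 (4.11 to 4.72). Ranked by count among the symbols detected in its library, Ucp2 stood above 84.7% of them on PUCL@CNT1 and 93.9% on PUCL in differentiation medium, and above 23.4% on PUCL@CNT1 and 35.9% on PUCL in maintenance medium. Among 7438 genes with a mean of 50 or more counts, its ratio ranked 43rd on PUCL@CNT1 and 41st on PUCL, and by the smaller of its 2 ratios it ranked 8th. By a size rule (at least 2-fold, with the nearer 95% bound beyond 1.5-fold) 4.35% of the tested genes were higher in differentiation medium on both platforms, Ucp2 among them. Since Ucp2 was chosen on this contrast, nothing further is read from these ranks.

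The platform difference was not used to choose Ucp2, and Ucp2 was lower on PUCL@CNT1 than on PUCL in both media. In differentiation medium its level on PUCL@CNT1 was 2.31-fold lower (log2 ratio -1.21, 95% interval -1.33 to -1.09). In maintenance medium it was 2.09-fold lower (log2 ratio -1.06, -1.62 to -0.53). The 2 ratios differed by -0.15 on the log2 scale (differentiation minus maintenance, 95% normal interval -0.68 to 0.38 from counting error), and a shift in the platform effect from one medium to the other was not detectable at this depth and could not be tested.

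In edgeR's quasi-likelihood test with platform and medium as additive terms, the fitted platform difference was -1.15 (SE 0.322, unadjusted p 0.0006, adjusted p 0.0888), with PUCL@CNT1 lower in 2 of 2 media. It missed the threshold of 0.05. The fit leaves 1 residual degree of freedom and borrows its spread mostly from other genes. By that test 0.247% of all genes were called lower on PUCL@CNT1. Other scalings, filters and limma-voom gave log2 values from -1.21 to -1.14 with adjusted p from 0.0333 to 0.381, and with 2 of them, given in the closing section, Ucp2 passed the threshold. By the size rule, 3.17% of genes were lower on PUCL@CNT1 in both media, and Ucp2 was not among them, because its bound in maintenance medium lay within 1.5-fold.

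**Figure D2:**
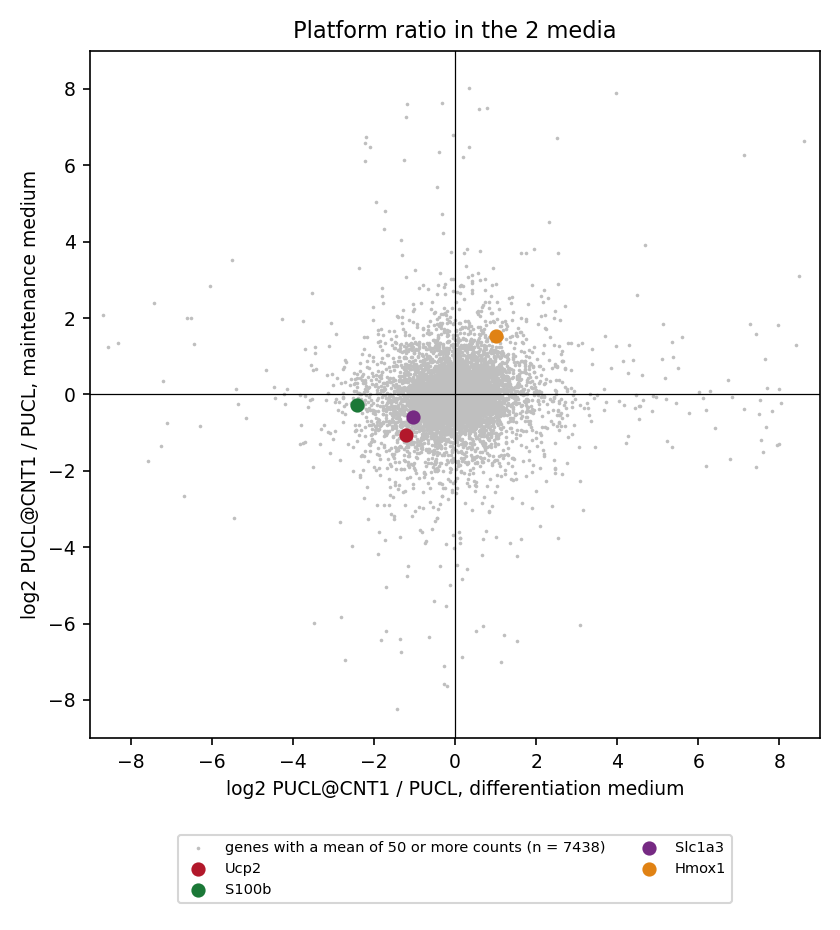
Log2 ratio of PUCL@CNT1 to PUCL in differentiation medium (horizontal) against that in maintenance medium (vertical), each grey point 1 of 7438 genes with a mean of 50 or more counts. Ucp2 lies at -1.21 in differentiation medium and -1.06 in maintenance medium, in the lower left, where both ratios are below 0. Hmox1, which lies above 0 in both, and S100b and Slc1a3, which lie below 0 in both, passed the edgeR threshold for platform.

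Other measures also differed between the platforms. The ribosomal RNA entry Rn45s held 4.25% of counts on PUCL@CNT1 and 6.72% on PUCL in differentiation medium, and 4.54% on PUCL@CNT1 and 5.66% on PUCL in maintenance medium. Scaling without the ribosomal RNA entries put the fitted Ucp2 difference at -1.21 (edgeR adjusted p 0.0333). The glial calcium-binding protein gene S100b was lower on PUCL@CNT1 (fitted log2 -1.36, SE 0.286, edgeR adjusted p 0.00578), with a log2 ratio of -2.41 in differentiation medium and -0.28 in maintenance medium. The glutamate transporter gene Slc1a3 was also lower (fitted log2 -0.82, SE 0.209, edgeR adjusted p 0.0457), with -1.03 in differentiation medium and -0.60 in maintenance medium. Over 8 astrocyte markers, of which Slc1a2 and Gjb6 had no count, summed levels were 481 CPM on PUCL@CNT1 and 993 on PUCL in differentiation medium, and 502 on PUCL@CNT1 and 520 on PUCL in maintenance medium. Most of the gap in differentiation medium lay in S100b, at 114 CPM on PUCL@CNT1 and 609 on PUCL, while the gap junction gene Gja1 stood at 344 CPM on PUCL@CNT1 and 304 on PUCL. The part of these differences in the Ucp2 result was not tested.

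Microglia express Ucp2, so their markers were read beside it. Of 18 markers of microglia and macrophages, 13 had no count in any library, among them Aif1, Cx3cr1, Csf1r, Itgam, P2ry12 and Ptprc, which define these cells. Among the rest, Cd14 had 51 counts on PUCL@CNT1 and 83 on PUCL in differentiation medium, against 28 and 21 in maintenance medium. Cd68 had 24 on PUCL@CNT1 and 47 on PUCL in differentiation medium, against 0 and 29 in maintenance medium. Trem2, Fcer1g and Laptm5 had at most 18 counts in any library. A count of 0 allows a level of up to 0.451 to 0.48 CPM per library. The summed level of the 18 was 12.6 CPM on PUCL@CNT1 and 20.1 on PUCL in differentiation medium, and 4.48 on PUCL@CNT1 and 11.7 on PUCL in maintenance medium. Among 11 endothelial markers Pecam1, Cdh5, Tek and Vwf had no count, and the sums were 46 CPM on PUCL@CNT1 and 37.4 on PUCL in differentiation medium, and 29.8 on PUCL@CNT1 and 28.1 on PUCL in maintenance medium. The highest single endothelial count was 125, for Flt1 on PUCL@CNT1 in differentiation medium. Kdr had 71 counts on PUCL@CNT1 and 0 on PUCL in differentiation medium, against 69 and 95 in maintenance medium. Ucp2 was also read beside markers of the neural lineages, some of which rose with the medium. The medium fit called 1.8% of all tested genes higher and 1.02% lower in differentiation medium. Among 9 tested progenitor markers edgeR called 3 higher (Hes1, Vim and Fabp7), against 1 by DESeq2 and 4 by limma-voom. Among 9 oligodendrocyte lineage markers it called 3 higher, Olig1 and Mbp among them, against 1 by DESeq2 and 2 by limma-voom. Among 6 tested astrocyte markers edgeR called 1 higher, S100b, against 1 by DESeq2 and 1 by limma-voom. S100b had a fitted log2 of 1.50 (SE 0.287, edgeR adjusted p 0.000279), with 0.42 on PUCL@CNT1 and 2.56 on PUCL. Fabp7 and Olig1 kept their calls in 8 of 8 other tests, S100b in 7 of 8, Mbp in 5 of 8 and Vim in 2 of 8. The summed progenitor markers stood at 10400 CPM on PUCL@CNT1 and 8240 on PUCL in differentiation medium, and at 6720 on PUCL@CNT1 and 6390 on PUCL in maintenance medium. Most of each sum was Vim, at 7640 CPM on PUCL@CNT1 and 4810 on PUCL in differentiation medium, and 4800 and 4310 in maintenance medium. In differentiation medium Nes, Hes1 and Fabp7 were also higher on PUCL@CNT1. Sox2 (584 against 975 CPM), Slc1a3 (312 against 639), Pax6, Prom1 and Notch1 were lower there. The summed oligodendrocyte lineage markers stood at 1410 CPM on PUCL@CNT1 and 1430 on PUCL in differentiation medium, and at 760 on PUCL@CNT1 and 912 on PUCL in maintenance medium.

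Neuronal markers summed to 222 CPM on PUCL@CNT1 and 282 on PUCL in differentiation medium, and to 403 on PUCL@CNT1 and 498 on PUCL in maintenance medium. Of 9 tested, edgeR called 0 for the medium (0 higher and 4 lower at an unadjusted p under 0.05, 0 by DESeq2 or limma-voom). Over all 10516 genes tested, 1273 had such an unadjusted p in either direction. Sums for mural cells and fibroblasts ran from 600 to 655 CPM in differentiation medium and from 948 to 1340 in maintenance medium, and those for dying or stressed cells from 499 to 761 CPM in differentiation medium and from 438 to 531 in maintenance medium. Acta2, a smooth muscle actin gene, was the 1 mural marker of 7 tested that edgeR called lower, beside 1.02% of all genes. Ependymal markers summed to at most 19.2 CPM in any library. The part of these shifts in the Ucp2 values was not tested. In bulk RNA, more cells that express Ucp2 and more Ucp2 RNA per cell cannot be told apart.

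The other genes of the uncoupling branch had at most 226 counts in any library. Ucp1, the brown fat protein, had no count in any library. Ucp3, which lies next to Ucp2 on the chromosome and is known from skeletal muscle, had 15 counts on PUCL in maintenance medium and none in the other 3 libraries. Slc25a27, also called UCP4 and expressed in brain, had 3 counts on PUCL@CNT1 and 81 on PUCL in differentiation medium, against 16 on PUCL@CNT1 and 37 on PUCL in maintenance medium. Slc25a14, also called UCP5, had 5 counts on PUCL@CNT1 and 226 on PUCL in differentiation medium, against 21 on PUCL@CNT1 and 20 on PUCL in maintenance medium. Slc25a30, a close relative described in kidney, had 89 counts on PUCL@CNT1 and 52 on PUCL in differentiation medium, against 21 on PUCL@CNT1 and 59 on PUCL in maintenance medium.

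None of these genes was high in both differentiation libraries and low in both maintenance libraries. Of 4 members tested beside Ucp2, edgeR called 0 for the medium, with 0 at an unadjusted p under 0.05 and 0 by DESeq2 or limma-voom. With 1.8% of all genes called higher and 1.02% lower, a count of 0 of 4 is near the background. Of all medium calls 63.9% were higher, against 53.5% with scaling to total counts and 51.4% with total counts without ribosomal RNA. Slc25a14 had a log2 ratio of -2.06 on PUCL@CNT1 and 3.49 on PUCL, which are of opposite sign. Its annotated span overlaps Zfp280c, and reads of the 2 genes could not be separated.

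Across the whole Slc25 family, 43 members were in the tables, 36 had a count and 35 were tested. Ucp2 made up 3.83% of all family counts on PUCL@CNT1 (exact 95% binomial interval 3.59 to 4.09) and 9.46% on PUCL (9.07 to 9.86) in differentiation medium. In maintenance medium it made up 0.224% (0.162 to 0.302) on PUCL@CNT1 and 0.505% (0.408 to 0.617) on PUCL. These shares need no scaling between libraries. The other 42 carriers together stood at 3306 CPM on PUCL@CNT1 and 2918 on PUCL in differentiation medium, and at 3060 on PUCL@CNT1 and 2841 on PUCL in maintenance medium. The share of Ucp2 was thus higher in both differentiation libraries than in both maintenance libraries, and lower on PUCL@CNT1 than on PUCL in each medium.

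Of 34 carriers tested beside Ucp2, 0 rose and 1 fell by edgeR, with 2 higher and 2 lower at an unadjusted p under 0.05, and 0 and 1 by DESeq2 and by limma-voom. Over all 10516 genes tested, edgeR called 1.8% higher and 1.02% lower, and 1273 had an unadjusted p under 0.05 in either direction. A count of 0 higher of 34 is near that background. By the size rule, 2 of the 34 were higher on both platforms, Slc25a53 among them, near the 4.35% of all tested genes. Another 5 were lower on both platforms, and the share of all genes that were so was not counted. The median log2 ratio of the 34 (mean of both platforms, counts of 0 set to 3) was 0.19, against 0.01 over all genes tested. The carrier that fell was Slc25a1, which exports citrate for lipid synthesis, with 416 counts on PUCL@CNT1 and 412 on PUCL in differentiation medium, against 973 on PUCL@CNT1 and 1910 on PUCL in maintenance medium. Its fitted log2 change was -1.75 (SE 0.295, edgeR adjusted p 1.98e-05), and it was lower on both platforms.

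The carriers with the most counts did not pass the test. Slc25a4, an ADP/ATP exchanger, had 10008 counts on PUCL@CNT1 and 6603 on PUCL in differentiation medium, against 7503 on PUCL@CNT1 and 6974 on PUCL in maintenance medium (edgeR adjusted p 0.918). The phosphate carrier Slc25a3 had 5067 counts on PUCL@CNT1 and 5095 on PUCL in differentiation medium, against 4452 on PUCL@CNT1 and 4208 on PUCL in maintenance medium (edgeR adjusted p 0.84). Slc25a5, the other ADP/ATP exchanger, had log2 ratios of 0.01 on PUCL@CNT1 and 0.28 on PUCL (edgeR adjusted p 0.951).

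**Figure D3:**
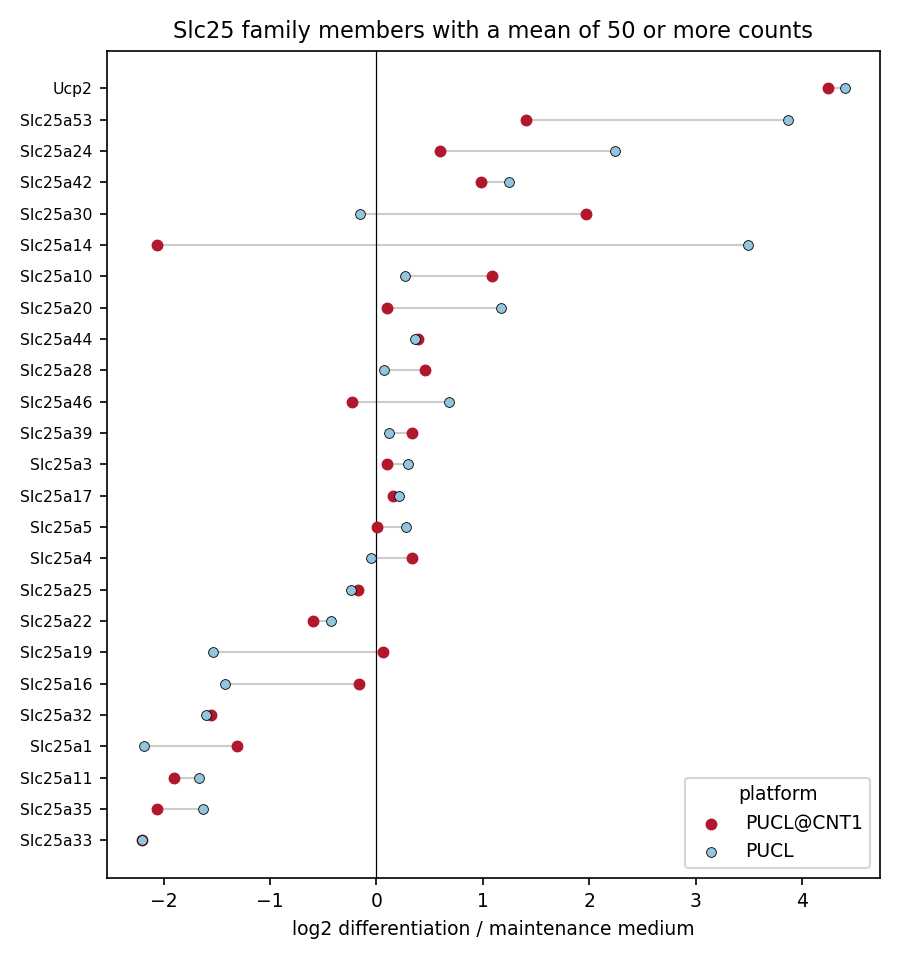
Log2 ratio of differentiation to maintenance medium on PUCL@CNT1 (red) and PUCL (blue) for the Slc25 family members with a mean of 50 or more counts, ordered by their mean. Ucp2 stands at the top with ratios of 4.24 on PUCL@CNT1 and 4.40 on PUCL, Slc25a53 had 1.41 on PUCL@CNT1 and 3.87 on PUCL, and Slc25a14 had ratios of opposite sign.

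The 3 protein-coding genes on each side of Ucp2 in the RefSeq table were read for the same contrast. Ucp3 is given above, and C2cd3, a centriole protein gene, had at most 25 counts. Ppme1, a phosphatase methylesterase gene, had 620 counts on PUCL@CNT1 and 920 on PUCL in differentiation medium, against 919 on PUCL@CNT1 and 1282 on PUCL in maintenance medium. On the other side Dnajb13 had at most 8 counts. Coa4, a cytochrome oxidase assembly gene, had 182 counts on PUCL@CNT1 and 210 on PUCL in differentiation medium, against 210 on PUCL@CNT1 and 329 on PUCL in maintenance medium. The mitochondrial ribosome gene Mrpl48 had 679 counts on PUCL@CNT1 and 645 on PUCL in differentiation medium, against 865 on PUCL@CNT1 and 873 on PUCL in maintenance medium. Of the 5 tested, edgeR called 0 for the medium (0 at an unadjusted p under 0.05, 0 by DESeq2 or limma-voom). With 1.8% of all genes called higher and 1.02% lower, 0 of 5 is near the background. Of the neighbours, 3 had ratios below 0 on both platforms (Ppme1, Coa4 and Mrpl48), and the share of all genes with such ratios was not counted. The span of Mrpl48 overlaps Rab6a, and no gene in that table overlaps Ucp2.

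Fatty acids and the PPAR receptors that sense them are known inducers of Ucp2 in several tissues. Some genes of fatty acid oxidation rose with the medium, and a link between them and Ucp2 was not tested. Among 31 tested genes of PPAR targets and fatty acid oxidation, 3 rose and 1 fell by edgeR (2 and 1 by DESeq2, and 2 and 1 by limma-voom), beside the background of 1.8% and 1.02% of all genes. Of the 31, 18 had ratios above 0 on both platforms and 4 below 0 on both, and 11 higher and 1 lower had an unadjusted p under 0.05. Over all 10516 genes tested, 1273 had an unadjusted edgeR p under 0.05 in either direction. The share of all genes with ratios of the same sign on both platforms was not counted. Their median log2 ratio was 0.77, against 0.01 over all genes tested. Cpt1a, which admits long-chain fatty acids to mitochondria, had 1170 counts on PUCL@CNT1 and 1357 on PUCL in differentiation medium, against 610 on PUCL@CNT1 and 603 on PUCL in maintenance medium (fitted log2 1.02, SE 0.283, edgeR adjusted p 0.0237).

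Ech1, an enzyme for unsaturated fatty acids, had 799 counts on PUCL@CNT1 and 942 on PUCL in differentiation medium, against 300 on PUCL@CNT1 and 251 on PUCL in maintenance medium (fitted log2 1.63, SE 0.342, edgeR adjusted p 0.00114). Acad11, an acyl-CoA dehydrogenase gene, had 109 counts on PUCL@CNT1 and 69 on PUCL in differentiation medium and 0 in both maintenance libraries. With 3 counts per library as the floor, Acad11 was higher by a factor of at least 34.1 on PUCL@CNT1 and at least 23.5 on PUCL (edgeR adjusted p 0.0463). The call of Cpt1a held in 5 of 8 other tests, that of Ech1 in 7 of 8 and that of Acad11 in 3 of 7, with edgeR, DESeq2 or limma-voom adjusted p of up to 0.0956, 0.0651 and 0.162. Among genes with a mean of 300 or more counts, edgeR called 0 of the list.

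Acsl3, which activates fatty acids, fell, with 821 counts on PUCL@CNT1 and 772 on PUCL in differentiation medium, against 1658 on PUCL@CNT1 and 1928 on PUCL in maintenance medium (fitted log2 -1.20, SE 0.252, edgeR adjusted p 0.00114). The PPAR target Pdk4 had 13 counts in 1 library and none in the others. Plin2, a lipid droplet protein gene and PPAR target, had 198 counts on PUCL@CNT1 and 293 on PUCL in differentiation medium, against 126 on PUCL@CNT1 and 57 on PUCL in maintenance medium (edgeR adjusted p 0.292).

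Receptors and other regulators linked to Ucp2 were read for the same contrast. Of 18 tested, edgeR called 0 for the medium, with 1 higher and 0 lower at an unadjusted p under 0.05, and 0 by DESeq2 or limma-voom. That count is near the background of 1.8% called higher and 1.02% called lower over all genes. Of the 18, 4 had ratios above 0 on both platforms and 8 below 0 on both, and the share over all genes was not counted. Pparg had no count and Ppara had 2 counts in all, both on PUCL@CNT1 in maintenance medium. Ppard had 28 counts on PUCL@CNT1 and 61 on PUCL in differentiation medium, against 72 on PUCL@CNT1 and 123 on PUCL in maintenance medium (edgeR adjusted p 0.864). Srebf1, which encodes a sterol and fatty acid regulator that acts at sterol elements, had 359 counts on PUCL@CNT1 and 290 on PUCL in differentiation medium, against 138 on PUCL@CNT1 and 168 on PUCL in maintenance medium (fitted log2 1.05, SE 0.499, edgeR adjusted p 0.362). Its relative Srebf2 had more counts, 1820 on PUCL@CNT1 and 2076 on PUCL in differentiation medium, against 2149 on PUCL@CNT1 and 2713 on PUCL in maintenance medium. The log2 ratios of Srebf2 were -0.33 on PUCL@CNT1 and -0.36 on PUCL (edgeR adjusted p 0.607). The thyroid hormone receptor gene Thra had 517 counts on PUCL@CNT1 and 591 on PUCL in differentiation medium, against 276 on PUCL@CNT1 and 683 on PUCL in maintenance medium. Hnrnpk, an RNA-binding protein gene, had log2 ratios of 0.20 on PUCL@CNT1 and 0.13 on PUCL.

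UCP2 moves malate and aspartate out of mitochondria and glutamine feeds that pool, so genes of this route were read as a list. Of 23 tested, 1 rose and 2 fell by edgeR (1 and 2 by DESeq2, 0 and 2 by limma-voom), and the list median was -0.01. Over all genes tested, edgeR called 1.8% higher and 1.02% lower. Pc, the pyruvate carboxylase that makes oxaloacetate, had 60 counts on PUCL@CNT1 and 156 on PUCL in differentiation medium and 0 in both maintenance libraries. Against the same floor Pc was higher by a factor of at least 18.8 on PUCL@CNT1 and at least 53.0 on PUCL (edgeR adjusted p 0.0123), a call kept in 6 of 7 other tests. Like Acad11, Pc met the filter for testing only through the differentiation libraries. Slc25a1, described above, fell, and so did Acly, which splits the exported citrate, with 1898 counts on PUCL@CNT1 and 2424 on PUCL in differentiation medium, against 4264 on PUCL@CNT1 and 6122 on PUCL in maintenance medium (fitted log2 -1.28, SE 0.192, edgeR adjusted p 1.12e-06). The glutamine importer Slc1a5 had log2 ratios of -0.24 on PUCL@CNT1 and -0.92 on PUCL (edgeR adjusted p 0.174).

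Genes that remove superoxide and peroxide had a median medium log2 ratio of 0.18, against 0.01 over all genes tested. Of 25 tested, 0 rose and 1 fell by edgeR (4 and 1 at an unadjusted p under 0.05, 0 and 1 by DESeq2 and by limma-voom). Over all 10516 genes tested, edgeR called 1.8% higher and 1.02% lower, and 1273 had an unadjusted p under 0.05 in either direction. The one that fell was Hmox1, which degrades heme, with 1554 counts on PUCL@CNT1 and 750 on PUCL in differentiation medium, against 3474 on PUCL@CNT1 and 1272 on PUCL in maintenance medium (fitted log2 -0.99, SE 0.233, edgeR adjusted p 0.00485), a call kept in 7 of 8 other tests. Hmox1 was higher on PUCL@CNT1 than on PUCL (fitted log2 1.27, SE 0.234, edgeR adjusted p 0.000622), the opposite sign to Ucp2. The mitochondrial superoxide dismutase Sod2 had log2 ratios of 0.25 on PUCL@CNT1 and 0.07 on PUCL (edgeR adjusted p 0.952).

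Genes that mark mitochondrial content, such as import channels, porins and respiratory subunits, had a median log2 ratio of -0.05. Of 30 tested, edgeR called 0 for the medium (1 higher and 0 lower at an unadjusted p under 0.05, 0 by DESeq2 or limma-voom). The edgeR background over all genes was 1.8% called higher and 1.02% called lower. Their summed level was 5780 CPM on PUCL@CNT1 and 5120 on PUCL in differentiation medium, and 5800 on PUCL@CNT1 and 5180 on PUCL in maintenance medium. The citrate synthase Cs had 339 counts on PUCL@CNT1 and 343 on PUCL in differentiation medium, against 391 on PUCL@CNT1 and 355 on PUCL in maintenance medium. Tfam, which packages mitochondrial DNA, had 692 counts on PUCL@CNT1 and 759 on PUCL in differentiation medium, against 690 on PUCL@CNT1 and 680 on PUCL in maintenance medium.

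**Figure D4:**
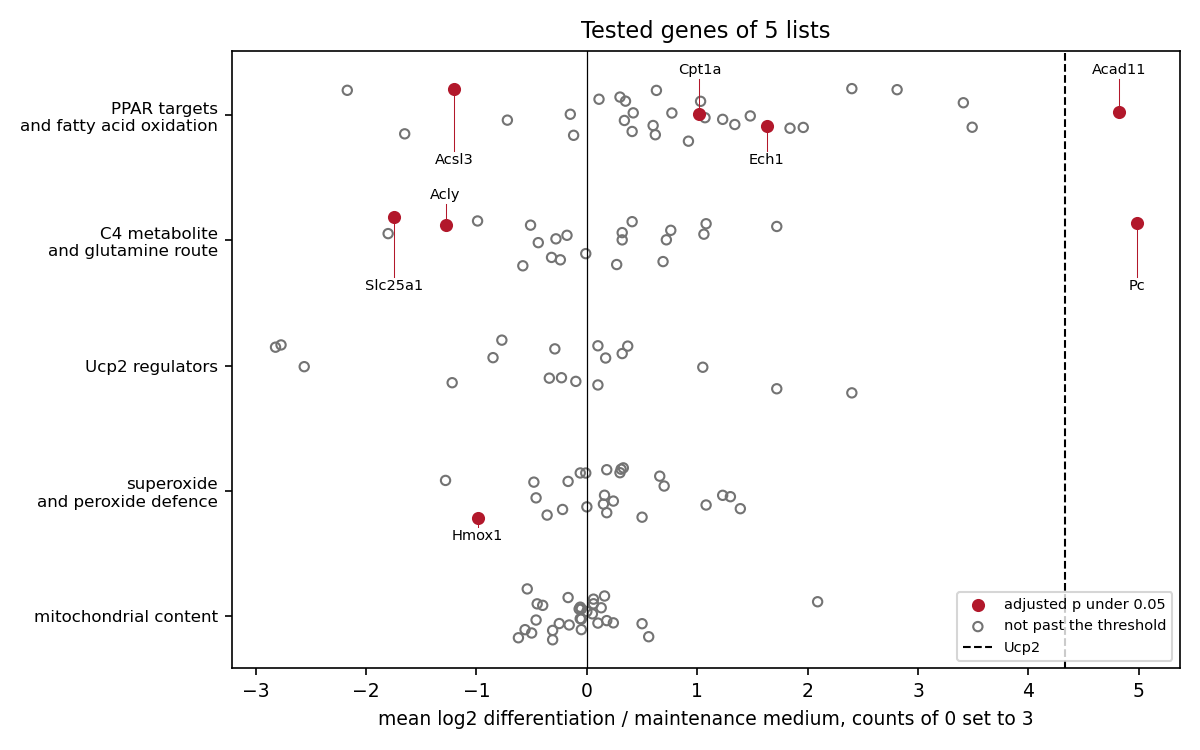
Medium log2 ratio (mean of both platforms, counts of 0 set to 3) of each tested gene in 5 lists, with filled points for genes past the edgeR threshold, and a dashed line at 4.33 for Ucp2. Pc and Acad11, with no counts in maintenance medium, are the points to the right of the line, and the mitochondrial content genes gather near 0.

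The genes with the profile most like that of Ucp2 were found by the distance between log2 CPM values over the 4 libraries, each gene centred on its own mean. Among 7437 other genes with a mean of 50 or more counts, distances of the nearest 8 ran from 0.884 to 1.57, against a median of 4.54. That median mainly reflects the large rise for which Ucp2 was chosen, so it gives no scale for likeness. With only 4 libraries, which all genes share, such likeness is a description and the ratios of these genes were not tested. Among them, in order, were Copz2 (a coatomer subunit), Tmem176a (a membrane protein), Ccl27 (a chemokine), Tinagl1 (a matrix protein), Myl9 (a myosin light chain), Gpr37l1 (a receptor of glia) and Crym (a binder of thyroid hormone). Some, such as Copz2 and Gpr37l1, reached the mean of 50 counts only through differentiation medium.

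Copz2 came nearest, with 112 counts on PUCL@CNT1 and 163 on PUCL in differentiation medium, against 8 on PUCL@CNT1 and 13 on PUCL in maintenance medium. Tmem176a had 241 counts on PUCL@CNT1 and 222 on PUCL in differentiation medium, against 8 on PUCL@CNT1 and 22 on PUCL in maintenance medium, and its span overlaps Tmem176b. Crym, which had the most counts of the 8, had 2167 counts on PUCL@CNT1 and 4678 on PUCL in differentiation medium, against 397 on PUCL@CNT1 and 377 on PUCL in maintenance medium. Like Ucp2, Crym was 2.22-fold lower on PUCL@CNT1 in differentiation medium, but in maintenance medium its log2 platform ratio was 0.15 (95% interval -0.05 to 0.36). The span of Ccl27 overlaps Il11ra1, so its counts may hold reads of both.

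Tinagl1 had 401 counts on PUCL@CNT1 and 707 on PUCL in differentiation medium, against 51 on PUCL@CNT1 and 48 on PUCL in maintenance medium. Myl9 had 383 counts on PUCL@CNT1 and 331 on PUCL in differentiation medium, against 19 on PUCL@CNT1 and 69 on PUCL in maintenance medium. Gpr37l1 had 35 counts on PUCL@CNT1 and 195 on PUCL in differentiation medium, against 3 on PUCL@CNT1 and 2 on PUCL in maintenance medium. The platform log2 ratio of Gpr37l1 was -2.50 in differentiation medium, and that of Myl9 was -1.76 in maintenance medium. Copz2 had platform ratios of -0.58 in differentiation medium (95% interval -0.94 to -0.23) and -0.59 in maintenance medium (-2.10 to 0.76). Ccl27 had -0.21 in differentiation medium (-0.61 to 0.18) and -0.48 in maintenance medium (-2.00 to 0.90), both with intervals that span 0. The last gene inside the limit, Crym, and the first outside it, Actc1, had distances of 1.57 and 1.58.

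**Figure D5:**
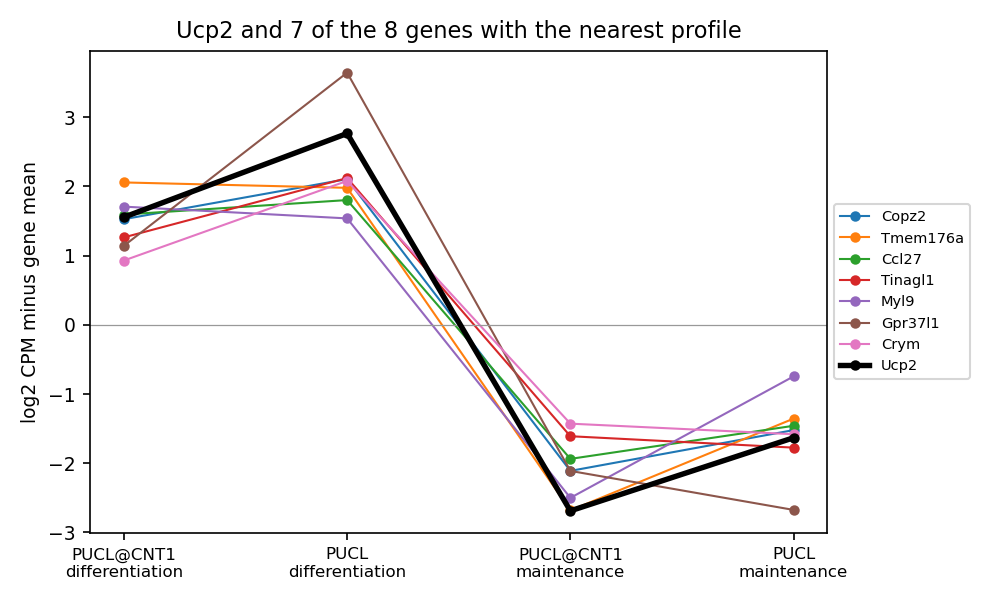
Log2 CPM minus each gene's own mean in the 4 libraries for Ucp2 (thick black line) and 7 of the 8 genes with the nearest profiles, with lines joining the values of 1 gene. All genes drawn are higher in both differentiation libraries than in both maintenance libraries, and the platform with the higher value differs from gene to gene.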

How the data were processed

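Gene counts of 4 libraries of rat NSPCs, 1 per group, were analysed as deposited. The authors deposited raw counts per gene symbol without normalization, and Bowtie2, bedtools and the rn6 build were used per the submitters' processing notes. Versions, annotation, strand setting and filters are not given in the sources used here, so antisense and overlapping genes could not be told apart. The 17048 entries were summed to 16881 symbols, and Ucp2 had 1 entry. Any gene reaching 10 counts in some library entered the fits, under TMM scaling with factors from 0.97 to 1.03. Ratios of 2 libraries used a prior count of 0.5 and exact 95% Clopper-Pearson intervals, and a count of 0 was set at 3 counts for floor factors and list medians. edgeR 4.0.16 (glmQLFit and glmQLFTest, platform plus medium, Benjamini-Hochberg adjustment over all genes, threshold 0.05) gave all tests, with DESeq2 1.42.0 and limma 3.58.1 as alternatives; the script was tested on simulated data. Samples are labelled as separate libraries with no statement on separate cultures, and no group has a repeat. The spread behind the p-values is how far an effect differs across the other factor, drawn mostly from other genes. It does not measure the spread between cultures, it may be technical in part, and a real difference in response between platforms would count as error. RefSeq tables (GRCr8), in which 14393 of the symbols were found, served for overlaps, neighbours and promoters only. Members and lists were chosen with earlier results of these data known. Genes were named by rule: the uncoupling family, the 3 neighbours on each side, the 8 genes nearest in profile, up to 4 called members per list, regulators and markers; Slc25a3, Slc25a4, Slc25a5, Slc25a53, Plin2, Pdk4, Slc1a5, Sod2, Cs and Tfam fall outside it and were chosen after their values were seen. Some genes that the rule names are not reported here.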

Additional observations from a re-analysis of the deposited data

Results flagged for a closer look

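Among the genes of the pathway and marker lists, 7 passed the size rule in opposite directions on the 2 platforms, and with 1 library per group the difference between platforms was not tested. The share of all tested genes with opposite calls was not counted, so the 7 are not read as a result about these lists. Several of these ratios rest on counts of 0 or 1, and their size then depends on the prior count. Slc25a14, of the uncoupling branch, had a medium log2 ratio of -2.06 on PUCL@CNT1 and 3.49 on PUCL. Nrf1, a regulator of mitochondrial genes, had -6.80 on PUCL@CNT1 and 2.23 on PUCL. Its counts were 1 on PUCL@CNT1 and 66 on PUCL in differentiation medium, against 157 on PUCL@CNT1 and 14 on PUCL in maintenance medium. Prdx6, a peroxidase, had -1.56 on PUCL@CNT1 and 1.55 on PUCL. Acsl6, a fatty acid activating enzyme, had 4.95 on PUCL@CNT1 and -5.26 on PUCL, from 16 counts on PUCL@CNT1 and 0 on PUCL in differentiation medium, against 0 on PUCL@CNT1 and 19 on PUCL in maintenance medium. Among the markers, Cspg4 of the oligodendrocyte lineage had 1.82 on PUCL@CNT1 and -2.20 on PUCL. The fibroblast collagen gene Col1a1 had 5.79 on PUCL@CNT1, from 88 counts in differentiation and 1 in maintenance medium. On PUCL it had -3.47, from 7 counts in differentiation and 84 in maintenance medium. The astrocyte filament gene Gfap had -5.38 on PUCL@CNT1, from 0 counts in differentiation and 19 in maintenance medium. On PUCL it had 6.01, from 31 counts in differentiation and 0 in maintenance medium.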

How the results depend on the processing

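The Ucp2 medium ratios and the change of the platform difference stayed within their counting intervals under every scaling and prior count tried. The Ucp2 platform difference kept its direction throughout, at -1.15 with the standard settings, -1.21 with total counts without ribosomal RNA entries (adjusted p 0.0333) and -1.20 in limma-voom (adjusted p 0.0374), both past the threshold; the cause was not tested. DESeq2 gave -1.15 (SE 0.395, p 0.00357) and no adjusted p. Leaving out the 3 carriers with the most counts put the Ucp2 share of the family at 14.5% on PUCL@CNT1 and 27.8% on PUCL in differentiation medium, and 0.769% on PUCL@CNT1 and 1.60% on PUCL in maintenance medium. Over all genes, 296 passed for the medium, against 28 among genes with a mean of 300 or more counts, 170 in DESeq2 and 176 without the platform term; with that term dropped and 1 library left out, the lone library being assumed to vary like the others, 155 passed without PUCL@CNT1 in differentiation medium, 126 without PUCL in differentiation medium, 16 without PUCL@CNT1 in maintenance medium and 28 without PUCL in maintenance medium. Among genes with a mean of 300 or more counts, 0 members passed in the fatty acid oxidation list and 0 in the superoxide and peroxide list. Of the 8 genes most like Ucp2, 5 remained with a minimum mean of 20 counts and 3 with 200. No pairing by replicate was possible because each group has 1 library and the labels give no replicate number. The additive fit already sets each medium change within its platform and each platform difference within its medium. Depth limits genes under about 50 counts, and with 1 library per group no spread between cultures was measured.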
